A study of Mus musculus with 9 samples.

Results

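The BCL2 family decides whether the outer membrane of the mitochondrion stays closed or is opened, and 10 of its genes were followed in mouse articular chondrocytes. They were chosen by symbol: the anti-apoptotic genes *Bcl2*, *Bcl2l1* and *Mcl1*, the effectors *Bax* and *Bak1*, and the BH3-only genes *Bcl2l11*, *Bid*, *Bbc3*, *Pmaip1* and *Bmf*. All 10 were found among the 55471 genes in the deposited files, and all 10 were among the 15362 genes with enough counts to be tested. RNA had been sequenced from 9 cultures of primary chondrocytes of wild-type mice at postnatal day 5, in 3 groups of 3. The Control group, which the study's methods call Ad-Control, had received a control adenovirus. The Ad-OSCAR group had received a virus carrying OSCAR, a collagen receptor, and the Ad-OSCAR + 5-ASA group was infected in the same way and then given 5-aminosalicylic acid (5-ASA), a drug used for inflammatory bowel disease. All 3 groups grew on plates coated with COLpep, a collagen peptide that binds OSCAR, and none received IL-1β. The methods give 2 days of culture, 2 h of infection at 800 MOI (multiplicity of infection) and 24 h with or without 10 µM 5-ASA, whereas the sample annotations give 3 days, 2 h at 400 MOI and 36 h before 5-ASA. No Ad-Control culture received 5-ASA, so the drug was measured only in cells that overexpressed OSCAR. For chondrocytes in general the methods name ICR or C57BL/6 J mice, and the reporting summary names ICR mice of both sexes. Which applies to these cultures, and whether cultures came from separate animals, are not given in the sources used here, so p-values measure only the spread between these cultures.

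As background, the proteins of this family meet on the surface of the mitochondrion. BAX and BAK form the pores through which cytochrome c leaves and starts the caspases, and BCL2, BCL-XL (from *Bcl2l1*) and MCL1 hold them back. BH3-only proteins report stress: BIM (from *Bcl2l11*), PUMA (from *Bbc3*), NOXA (from *Pmaip1*), BMF and cleaved BID either occupy the anti-apoptotic proteins or activate the effectors directly. Loss of chondrocytes by apoptosis is a known feature of osteoarthritic cartilage. Much of the control over these proteins, including cleavage, phosphorylation and the rapid turnover of MCL1, is not visible in RNA.

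What the family shares is the BH3 motif, the short helix by which the pro-apoptotic members dock into the groove of the anti-apoptotic ones. The stretches of coding sequence around it are shown because they are the common feature of genes whose RNA moved in different ways below. Each is 45 bases of GRCm38, lies within 1 coding exon of a GENCODE M21 transcript and is written 5′ to 3′ on the coding strand. The proteins were searched for a leucine, any 3 residues, a glycine or alanine, and an aspartate, which each of these 9 holds once. No stretch is shown for *Pmaip1*, so the counts below are of the other 9 members. Capitals mark the codon of the motif's leucine and the codons of its glycine or alanine and of the aspartate that follows.
Bcl2, chr1:106712569-106712613, minus strand: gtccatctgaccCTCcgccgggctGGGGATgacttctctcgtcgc
Bcl2l1, chr2:152829691-152829735, minus strand: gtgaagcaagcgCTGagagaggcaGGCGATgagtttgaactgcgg
Mcl1, chr3:95659424-95659468, plus strand: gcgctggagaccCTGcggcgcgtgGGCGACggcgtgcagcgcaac
Bax, chr7:45465991-45466035, minus strand: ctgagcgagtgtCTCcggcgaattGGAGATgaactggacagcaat
Bak1, chr17:27022525-27022569, minus strand: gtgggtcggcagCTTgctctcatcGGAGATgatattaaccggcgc
Bcl2l11, chr2:128147138-128147182, plus strand: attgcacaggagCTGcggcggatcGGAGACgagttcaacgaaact
Bid, chr6:120897283-120897327, minus strand: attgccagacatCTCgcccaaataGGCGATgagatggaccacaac
Bbc3, chr7:16313761-16313805, plus strand: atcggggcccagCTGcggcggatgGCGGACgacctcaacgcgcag
Bmf, chr2:118545094-118545138, minus strand: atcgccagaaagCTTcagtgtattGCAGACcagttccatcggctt
A glycine codon precedes the aspartate codon in 7 of these 9 stretches, and an alanine codon does so in the other 2, from *Bbc3* and *Bmf*. The codons differ even where the residue is shared, since the leucine is written CTC, CTG or CTT.

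The cultures carried chondrocyte RNA and the intended overexpression. Total counts ranged from 19733448 to 28192740 per culture, and *Oscar* counts were 3 to 4 in Ad-Control, 173445 to 187278 in Ad-OSCAR and 80766 to 94199 with 5-ASA. The 10 chondrocyte markers summed to between 16024 and 18141 TPM (transcript levels scaled to the library, a measure per length) in Ad-Control, and all 10 fell with OSCAR, to a sum of 1050 to 1204 TPM. The sum was 1224 to 1421 TPM with 5-ASA, where 6 of the 10 rose against untreated Ad-OSCAR cells and none fell. Of 6 leukocyte markers only *Cd68* passed the test, rising with OSCAR and falling with 5-ASA. It was at 2.85 to 4.64 TPM in Ad-Control, 13.2 to 13.8 in Ad-OSCAR and 8.78 to 10.5 with 5-ASA, *Ptprc* did not exceed 0.03 TPM and *Cd3e* was at 0 in every culture. The fibroblast and synovial markers, led by *Prg4*, summed to 249 to 262, 571 to 620 and 483 to 540 TPM in the same order, although 3 of these 4 markers fell with OSCAR and 1 rose. Osteoclast markers, mostly *Acp5*, summed to 17.5 to 18.3, 11.5 to 12.8 and 10.4 to 11.5 TPM. With OSCAR *Acp5* fell, whereas *Calcr* rose, from 1 to 3 counts to 11 to 25 counts. Osteoblast markers summed to 29.0 to 34.5, 5.47 to 7.45 and 10.8 to 12.4 TPM. Endothelial, erythroid, muscle and adipocyte markers summed to at most 2.31 TPM. These shifts moved with the groups in which the BCL2 family moved, and their part in the values below was not tested. In bulk RNA, fewer cells of a type and less RNA per cell cannot be told apart.

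Chondrocytes made far more RNA for the effectors than for *Bcl2*. In Ad-Control cultures *Bax* was the highest member, with 193, 201 and 219 TPM. *Mcl1*, with 65.0, 67.8 and 62.8 TPM, and *Bak1*, with 60.7, 66.1 and 58.8, followed, and their values overlapped. *Bcl2l1* came next at 37.6 to 38.5 TPM. The BH3-only genes were lower: *Bbc3* lay between 14.4 and 17.7 TPM, *Bid* between 12.0 and 13.0, and *Bcl2l11* between 4.21 and 4.42. *Bcl2*, the gene that gave the family its name, lay between 1.95 and 2.23 TPM, above *Bmf* at 1.72 to 1.94 and *Pmaip1* at 0.13 to 0.74. Apart from *Mcl1* and *Bak1*, no neighbours in this order overlapped. In Ad-OSCAR cultures, with and without 5-ASA, *Bcl2l1* stood second, above *Mcl1* and *Bak1*, and no neighbours overlapped.

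**Figure D1:**
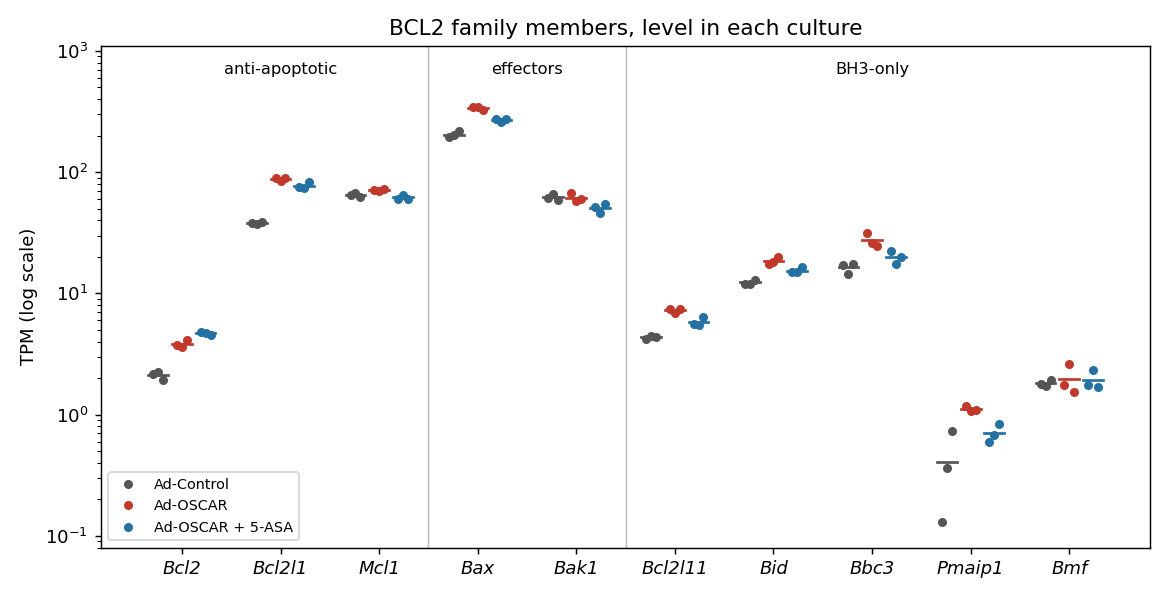
Level of each of the 10 BCL2 family genes in TPM on a log axis, by culture, for Ad-Control, Ad-OSCAR and Ad-OSCAR + 5-ASA (points: 3 cultures per group, lines: means). *Bax* is the highest gene in every culture, *Bcl2l1* passes *Mcl1* and *Bak1* in both groups infected with Ad-OSCAR, and *Pmaip1* is the lowest gene.

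The first comparison asked what OSCAR does to chondrocytes. With OSCAR, 7 of the 10 genes rose, none fell and 3 were not called (adjusted p below 0.05 in edgeR's quasi-likelihood test on normalized counts, with Benjamini-Hochberg adjustment over all genes tested). The response of the whole transcriptome was broad: 65.0% of all genes tested were called, 32.7% as higher and 32.2% as lower. A count of 7 called of 10 is therefore near the background, whereas no member was among the genes that fell. The median log2 fold change of the 10 was 0.72, and that of all genes tested was 0.02. The genes that rose came from all 3 classes. Past the study's own limit of 1.5 on the log2 scale, which 9.96% of genes tested passed, only *Pmaip1* was found. Its counts were low, and in alternative fits with limma it lay below this limit, at 0.61 on log2(TPM + 1) and 1.45 on log2(TPM + 0.1).

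Among the anti-apoptotic genes, *Bcl2l1* changed most. BCL-XL, its main product, guards the mitochondrion in many long-lived cells. *Bcl2l1* (chr2:152780668-152831728, minus strand) stood at 38.4, 37.6 and 38.5 TPM in Ad-Control and at 89.7, 85.2 and 89.8 TPM in Ad-OSCAR, so the groups were far apart compared with the spread within them. Gene coordinates are those of GRCm38. The log2 fold change was 1.18 (standard error 0.05, adjusted p = 1.31e-13). *Bcl2* (chr1:106538178-106714274, minus strand) had 2.15, 2.23 and 1.95 TPM in Ad-Control and 3.79, 3.60 and 4.10 TPM in Ad-OSCAR, which did not overlap either. Its log2 fold change was 0.82 (standard error 0.08, adjusted p = 3.96e-08), from a low level of 156 to 227 counts to 372 to 455 counts. *Mcl1* (chr3:95658788-95663176, plus strand), whose protein is short-lived, had a similar level in both groups: 65.0, 67.8 and 62.8 TPM against 70.8, 70.1 and 72.6. Every Ad-OSCAR culture was above every Ad-Control culture, but the log2 fold change was 0.11 (95% confidence interval 0.00 to 0.22) with an adjusted p of 0.0656, which did not pass. *Mcl1* passed in 6 of 19 alternative analyses.

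The effectors split. *Bax* (chr7:45461697-45466898, minus strand) had 193, 201 and 219 TPM in Ad-Control and 345, 344 and 328 TPM in Ad-OSCAR, with a log2 fold change of 0.73 (SE 0.05, adjusted p = 9.52e-10). The lowest Ad-OSCAR culture was well above the highest Ad-Control culture. *Bak1* (chr17:27019810-27029009, minus strand), which encodes the other pore-forming protein, had 60.7, 66.1 and 58.8 TPM in Ad-Control and 67.3, 57.7 and 60.0 in Ad-OSCAR. These values overlapped, and the log2 fold change of -0.03 (95% confidence interval -0.13 to 0.07, adjusted p = 0.58) did not pass. Scaled by library size alone, without the TMM correction for composition, it was 0.09, in the other direction and also without a call. *Bak1* lies over 2 genes annotated as *Ggnbp1* on the other strand, whose counts were at most 147 per culture.

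Of the BH3-only genes, 4 rose with OSCAR. *Bcl2l11* (chr2:128126038-128162547, plus strand), whose product BIM binds every anti-apoptotic member, had 4.21, 4.42 and 4.39 TPM in Ad-Control and 7.48, 6.92 and 7.38 in Ad-OSCAR (log2 fold change 0.79, standard error 0.08, adjusted p = 4.03e-08). *Bid* (chr6:120891930-120916853, minus strand), the link from death receptors to the mitochondrion, moved from 12.0 to 13.0 TPM to 17.4 to 20.1 TPM (0.54, standard error 0.07, adjusted p = 1.37e-06). It overlaps *Bcl2l13* on the other strand, a gene with 1071 to 1839 counts per culture. *Bbc3* (chr7:16308393-16318205, plus strand), the gene of the p53 target PUMA, had 17.1, 14.4 and 17.7 TPM in Ad-Control and 31.4, 25.9 and 24.7 in Ad-OSCAR (0.72, standard error 0.11, adjusted p = 1.05e-05). The Ad-OSCAR cultures spread widely, with the first one highest, yet all lay above Ad-Control. *Pmaip1* (chr18:66458533-66465565, plus strand), the gene of NOXA, which binds chiefly MCL1, was nearly silent in Ad-Control, with 4, 13 and 8 counts, and had 41, 33 and 45 counts in Ad-OSCAR. In this test that is the largest change of the 10 on the log2 scale, 1.90, and also the least certain, with a standard error of 0.32 (adjusted p = 4.07e-05). The rank depends on the fit: in limma on log2(TPM + 1) the change was 0.61, below the 1.19 of *Bcl2l1*. A filter of at least 10 counts in every culture removed *Pmaip1*. *Bmf* (chr2:118528757-118549687, minus strand), a sensor of lost attachment in other cells, had 71 to 87 counts and 105 to 107 counts, a log2 fold change of 0.07 once scaled (95% confidence interval -0.20 to 0.34, adjusted p = 0.638), and its TPM of 1.72 to 1.94 and 1.54 to 2.60 overlapped.

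**Figure D2:**
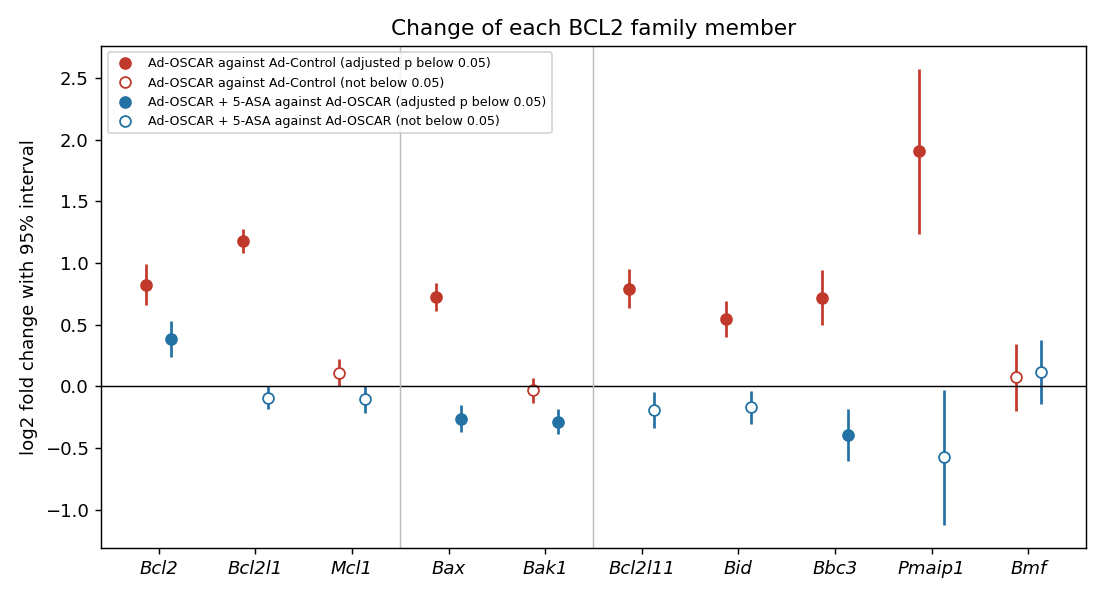
Log2 fold change of each BCL2 family gene with its 95% confidence interval, for Ad-OSCAR against Ad-Control and for Ad-OSCAR + 5-ASA against Ad-OSCAR (filled points: adjusted p below 0.05). Of the filled points, the 7 for OSCAR lie above 0, up to 1.90 for *Pmaip1*, and for 5-ASA *Bcl2* lies above 0 and *Bax*, *Bak1* and *Bbc3* below it.

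The second comparison asked how 5-ASA acts on cells that already overexpress OSCAR. The treated cultures also had less *Oscar* RNA, with a mean of 3269 TPM against 6818 TPM without the drug. An effect of the drug and one of the lower *Oscar* level cannot be told apart in this design, and neither was tested alone. *Bcl2* rose further, *Bax*, *Bak1* and *Bbc3* fell, and 6 of the 10 genes were not called. Over all genes tested, 17.8% were called, 10.4% as higher and 7.38% as lower. The members' median log2 fold change was -0.18, against -0.00 for all genes. All 4 changes were small: none of the 10 genes had a fold change of more than 1.5 in either direction with an unadjusted p below 0.05, which 4.15% of all genes tested had. These limits are the study's for 5-ASA, but its methods apply them to treated cells against Ad-Control, a comparison given further down. The direction of the calls over all genes depended on the scaling, since 58.5% of them were rises with TMM factors, 29.5% with library size only and 27.4% in limma on log2(TPM + 1). In the comparison of OSCAR with Ad-Control, 50.4% of calls were rises with TMM factors and 62.8% with library size only, which moved the median of all genes there by 0.13 on the log2 scale. The rise of *Bcl2* and the falls of *Bax*, *Bak1* and *Bbc3* with 5-ASA kept their direction under every scaling tried.

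*Bcl2* was the only member that OSCAR raised and 5-ASA raised again. The 5-ASA-treated cultures had 4.77, 4.72 and 4.57 TPM, against 3.79, 3.60 and 4.10 TPM without the drug and 1.95 to 2.23 TPM in Ad-Control, and none of the 3 groups overlapped. In counts scaled to library size with TMM factors (CPM), the means were 8.83 in Ad-Control, 15.7 in Ad-OSCAR and 20.5 with 5-ASA. The drug's log2 fold change was 0.39 (standard error 0.07, adjusted p = 0.000656). The call was made in 16 of 19 alternative analyses and lost in the 3 that used limma on TPM, with an adjusted p of up to 0.214. On the log2(TPM + 1) scale the log2 fold change was 0.24 (adjusted p = 0.0974 in limma over the genes tested).

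*Bcl2l1* and *Mcl1*, the anti-apoptotic genes with the higher levels, did not share that rise. *Bcl2l1* had 75.0, 74.3 and 83.0 TPM with 5-ASA against 89.7, 85.2 and 89.8 TPM without, a log2 fold change of -0.09 (95% confidence interval -0.18 to 0.00, adjusted p = 0.172). *Mcl1* had 60.6, 65.4 and 59.7 TPM against 70.8, 70.1 and 72.6 (-0.11, 95% confidence interval -0.21 to 0.00, adjusted p = 0.168). Neither gene's TPM overlapped between the groups, but after TMM scaling the differences did not pass. With library size only they did, at -0.16 (adjusted p = 0.0131) for *Bcl2l1* and -0.18 (adjusted p = 0.0182) for *Mcl1*. In all, *Bcl2l1* passed in 3 of 19 alternative analyses and *Mcl1* in 4 of 19. The median of all genes was -0.075 with library size only and -0.080 in limma on log2(TPM + 1), against -0.004 with TMM factors. Gaps in TPM between these 2 groups, here and below, therefore include a shift shared by all genes.

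Both effectors fell with 5-ASA. *Bax* went from 345, 344 and 328 TPM to 274, 258 and 273, still above every Ad-Control culture (log2 fold change -0.26, standard error 0.05, adjusted p = 0.00154). *Bak1*, which OSCAR had not raised, went from 67.3, 57.7 and 60.0 TPM to 52.1, 46.5 and 54.3, so that every treated culture was below every culture of both other groups. Its log2 fold change was -0.29 (standard error 0.05, adjusted p = 0.00042). The overlapping *Ggnbp1* entry with the more even counts went the other way, from 84 to 109 counts to 109 to 130. The call for *Bak1* was lost in limma on log2(TPM + 1) with every gene above 0 (-0.27, adjusted p = 0.103).

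Among the BH3-only genes, only *Bbc3* was called. It had 22.4, 17.6 and 20.1 TPM with 5-ASA against 31.4, 25.9 and 24.7 without, with no overlap (log2 fold change -0.39, standard error 0.10, adjusted p = 0.0103). This call was made in 16 of 19 alternative analyses. It was lost in limma on log2(TPM + 1) with every gene above 0 (-0.43, adjusted p = 0.098), without the first Ad-OSCAR culture (-0.31, adjusted p = 0.074), and without the second 5-ASA culture (-0.32, adjusted p = 0.0557). *Bcl2l11*, with 5.59, 5.52 and 6.43 TPM, and *Bid*, with 14.9, 15.1 and 16.4 TPM, lay below their Ad-OSCAR cultures without overlap but were not called. Their log2 fold changes were -0.19 (95% confidence interval -0.34 to -0.04, adjusted p = 0.068) and -0.17 (95% confidence interval -0.31 to -0.04, adjusted p = 0.0769). *Pmaip1* had 25, 24 and 28 counts with 5-ASA against 41, 33 and 45 without, and its interval of -1.12 to -0.03 on the log2 scale (estimate -0.58, adjusted p = 0.144) was the widest of the 10. *Bmf* had 106 to 117 counts with the drug (0.11, 95% confidence interval -0.14 to 0.37, adjusted p = 0.584).

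Treated Ad-OSCAR cells were also set beside Ad-Control. This comparison shares its cultures with the other 2 and is not separate evidence. Against Ad-Control, 7 members were higher, 1 was lower and 2 were not called, where 63.2% of all genes tested were called, 31.4% as higher and 31.8% as lower. *Bcl2* was higher by 1.21 and *Bcl2l1* by 1.09 on the log2 scale, *Bax* by 0.46, *Bcl2l11* by 0.60, *Bid* by 0.37, *Bbc3* by 0.32 and *Pmaip1* by 1.33. *Bak1* was lower, by -0.32 (adjusted p = 1.98e-05). *Mcl1*, at 0.00, and *Bmf*, at 0.19, were not called. By the study's limits for 5-ASA in this comparison (a fold change over 1.5 and an unadjusted p below 0.05), 4 members passed, namely *Bcl2*, *Bcl2l1*, *Bcl2l11* and *Pmaip1*, and all 4 were higher. Of all genes tested 29.9% passed. The call with the highest adjusted p was that of *Bbc3* (0.0158), which was made in 14 of 19 alternative analyses. It was lost without the second Ad-Control or the first 5-ASA culture and in all 3 limma fits on TPM, with an adjusted p of up to 0.143. *Pmaip1* was called in 15 of 18 and lost in the 3 limma fits, with an adjusted p of up to 0.206, and its TPM overlapped between these groups.

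Since the proteins act against each other, the levels were also read as ratios within each culture, which do not depend on library scaling. These ratios were chosen after the values had been seen and are given without a test. *Bax* RNA was 90.0, 90.2 and 112 times that of *Bcl2* in the Ad-Control cultures (mean 97.4 ± 12.7, SD, n = 3) and 91.0, 95.6 and 80.1 times in the Ad-OSCAR cultures (88.9 ± 7.96, SD, n = 3). With 5-ASA it was 57.3, 54.7 and 59.7 times (57.3 ± 2.50, SD, n = 3). OSCAR raised both genes and the first 2 groups overlapped, and the treated group lay below both. The ratio of *Bax* to *Bcl2l1* behaved otherwise: it was 5.36 ± 0.32 in Ad-Control, 3.85 ± 0.19 in Ad-OSCAR and 3.47 ± 0.18 with 5-ASA (SD, n = 3), so most of its decrease was present with OSCAR alone. The ratio of *Bax* to *Mcl1* went the other way, from 2.97 to 3.48 in the Ad-Control cultures (mean 3.14 ± 0.30) to 4.52 to 4.91 in Ad-OSCAR (4.77 ± 0.21) and 3.95 to 4.57 with 5-ASA (4.35 ± 0.34, SD, n = 3), both above every Ad-Control culture. *Bcl2l1* to *Mcl1* moved from 0.586 in Ad-Control to 1.24 in Ad-OSCAR and 1.26 with 5-ASA.

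The members' summed level was 407 ± 11.8 TPM in Ad-Control, 620 ± 13.7 in Ad-OSCAR and 507 ± 15.3 with 5-ASA (SD, n = 3). *Bcl2*, *Bcl2l1* and *Mcl1* together made up 25.9% ± 1.10, 26.3% ± 0.85 and 28.4% ± 1.00 of that sum (SD, n = 3), *Bax* and *Bak1* 65.4%, 64.6% and 62.9%, and the BH3-only genes 8.67%, 9.06% and 8.67%. These class shares moved by a few points, while single genes within a class exchanged places: *Bcl2l1* went from 9.38% to 14.2% and 15.3%, and *Mcl1* from 16.0% to 11.5% and 12.2%. *Bcl2* itself remained under 1% of the sum, at 0.519%, 0.618% and 0.925%.

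**Figure D3:**
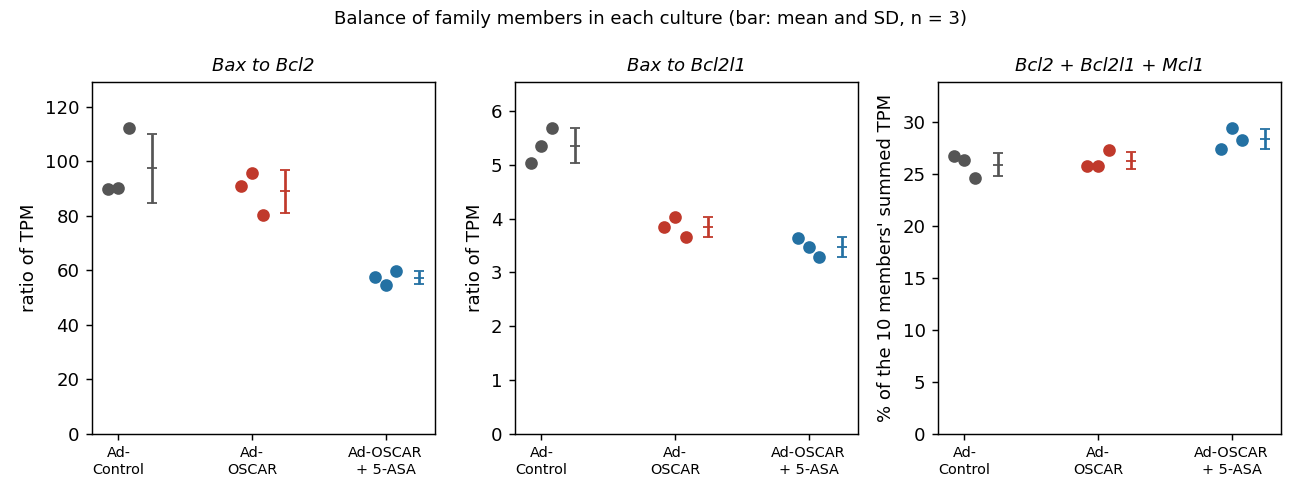
Ratio of *Bax* to *Bcl2* and of *Bax* to *Bcl2l1* in TPM, and the share of the 10 members' summed TPM held by *Bcl2*, *Bcl2l1* and *Mcl1*, by culture (points) with mean and SD (bars, n = 3). The *Bax* to *Bcl2* ratio is between 80.1 and 112 in the 2 groups without the drug and between 54.7 and 59.7 with 5-ASA, whereas the *Bax* to *Bcl2l1* ratio is already lower in Ad-OSCAR.

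The estimated transcript length, which RSEM derives from the isoforms it assigns reads to, was read for the members as a sign of a change in isoforms. For *Bax* it lay between 890.7 and 900.6 bases in Ad-Control and between 901.5 and 903.3 in Ad-OSCAR, without overlap but within a few bases (two-sided exact permutation test, p = 0.1, the smallest possible with 3 cultures against 3). *Bcl2l11*, which makes several isoforms, had 3733 to 4085 bases in Ad-Control, 4072 to 4190 in Ad-OSCAR and 4182 to 4264 with 5-ASA. For *Pmaip1*, whose counts were low, the length varied from 1127 to 2727 bases between cultures, which limits its TPM. The lengths of *Bmf*, from 2910 to 4440 bases, and of *Bak1*, from 1884 to 2175, also varied within groups, which limits their TPM too.

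The promoters of *Bcl2* and *Bax* are shown because these genes rose together with OSCAR and parted with 5-ASA. Each window is the 250 bases before a RefSeq gene start in GRCm38.p6, written 5′ to 3′ on the gene's strand, and capitals mark matches to any of 9 motifs searched on both strands.
Bcl2, chr1:106714291-106714540, minus strand: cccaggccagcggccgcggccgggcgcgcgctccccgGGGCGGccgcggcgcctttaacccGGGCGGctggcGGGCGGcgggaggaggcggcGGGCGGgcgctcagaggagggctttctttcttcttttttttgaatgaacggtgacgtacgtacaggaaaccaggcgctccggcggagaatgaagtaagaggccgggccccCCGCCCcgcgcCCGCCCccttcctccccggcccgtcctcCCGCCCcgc
Bax, chr7:45466899-45467148, minus strand: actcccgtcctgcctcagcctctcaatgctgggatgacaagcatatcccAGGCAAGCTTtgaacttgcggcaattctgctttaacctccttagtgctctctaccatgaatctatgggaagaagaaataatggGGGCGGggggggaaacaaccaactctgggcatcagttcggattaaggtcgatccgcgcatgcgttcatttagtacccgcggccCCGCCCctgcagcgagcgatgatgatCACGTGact
The motifs were AP-1 (TGANTCA), FOXO (GTAAACA), the composite of C/EBP and ATF (TGATGCAAT), CRE (TGACGTCA), STAT (TTCNNNGAA), the E-box (CACGTG), the GC box (GGGCGG), and the NF-kB site and p53 half-site, given by name. The *Bcl2* window is 74.8% G and C and holds 7 GC boxes and none of the other motifs, whereas the *Bax* window is 54.0% G and C and holds 2 GC boxes, 1 E-box and 1 p53 half-site. The median over all windows is 52.4%. Windows were matched for 9 of the 10 members. The GC box was found in 6 of these 9, against 35.4% of all genes, and the p53 half-site in *Bax* and *Bmf*, against 8.20% of all genes. The FOXO motif was found in *Bcl2l11* and *Bbc3*, against 3.54% of all genes and 3.17% of all windows. The NF-kB site was found in *Bcl2l1* and *Bbc3*, against 8.23% of genes and 7.25% of windows. The E-box was found in *Bax* and *Bbc3*, against 6.86% of genes. A gene can have multiple windows (32851 windows for 27025 genes). *Bcl2l11*, *Bcl2l1*, *Bbc3* and *Bmf* each have multiple, so the shares per gene are not like for like. AP-1, CRE, STAT and the C/EBP and ATF composite matched no member. A match describes the letters in the window only.

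The factors known to act on these genes did not move as one. *Trp53*, which encodes p53, the activator of *Bax*, *Bbc3* and *Pmaip1* in other settings, was at -0.05 with OSCAR (adjusted p = 0.477) and 0.01 with 5-ASA (adjusted p = 0.909). *Foxo3*, an activator of *Bcl2l11* and *Bbc3* elsewhere, rose with OSCAR by 0.42 on the log2 scale (adjusted p = 3.12e-07) and was at 0.00 with 5-ASA. *Ddit3*, the gene of the stress factor CHOP, fell by 0.24 with OSCAR (adjusted p = 0.000591). *Atf4* fell by 0.26 with OSCAR (adjusted p = 0.00031) and rose by 0.47 with 5-ASA (adjusted p = 5.23e-06). Of the 12 regulators with enough counts, 3 rose and 4 fell with OSCAR, and 1 rose and 1 fell with 5-ASA. The shares called over all genes were 65.0% and 17.8%. RNA levels do not report the activity of such factors.

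Of 56 other genes of the pathway, 47 could be tested, and with OSCAR 19 rose, 15 fell and 13 were not called, where 65.0% of all genes tested were called, 32.7% as higher and 32.2% as lower. These counts, made with TMM factors, are near that background. With library size only, 25 rose and 10 fell, where 10516 of 15362 genes were called, 6609 of them as higher. The median log2 fold change of the 47 with TMM factors was 0.02, the same to 2 decimals as that of all genes, beside 0.72 for the 10 members. All 11 apoptosome and caspase genes were called, against 65.0% of all genes, 7 of them as higher, against 32.7%, among them *Apaf1*, the scaffold of the apoptosome, by 0.31 on the log2 scale. *Endog*, a mitochondrial nuclease, fell by 1.04 (adjusted p = 4.09e-06). *Bok*, a further effector-like member, fell by 1.44 from 110 to 156 counts to 45 to 78 (adjusted p = 2.28e-07). *Bcl2l2*, the gene of the anti-apoptotic BCL-W and the only one of 5 further anti-apoptotic genes with enough counts, rose by 0.25 (adjusted p = 0.000683).

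The inhibitors of apoptosis went both ways with OSCAR, where 3 of 6 rose and 2 fell. Of the 7 genes of the death receptor arm 2 rose and 1 fell. Over all genes tested 65.0% were called, 32.7% as higher and 32.2% as lower. In a list of BH3 and BNIP genes with their mitochondrial partners, *Becn1* and *Mtch2* rose, *Bnip3*, *Bnip3l* and *Vdac2* fell, and *Bad* and *Bnip2* were not called. *Birc3*, which restrains death receptor signalling, rose by 1.44 on the log2 scale with OSCAR (adjusted p = 1.41e-13), from 12.3 to 20.1 TPM to 39.3 to 40.0. *Birc5*, the gene of survivin, which also serves mitosis, fell by 3.72 (adjusted p = 3.26e-15), with 580, 735 and 533 counts in Ad-Control and 65, 53 and 58 in Ad-OSCAR, and fell again with 5-ASA by 0.62 (adjusted p = 0.0217). *Fas*, the death receptor, rose by 1.11 with OSCAR (adjusted p = 4.45e-12), from 45.0 to 49.6 TPM to 96.9 to 110 TPM, and fell by 0.29 with 5-ASA (adjusted p = 0.000745), to 77.2 to 80.9 TPM.

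With 5-ASA, 2 of the 47 genes rose, 7 fell and 38 were not called, with a median of -0.04. Over all genes tested 17.8% were called, 10.4% as higher and 7.38% as lower, so the total is near the background. With library size only, 2 rose and 14 fell, where 3580 of 15362 genes were called, 1057 of them as higher. The 2 that rose were *Atf4* and *Bnip3*, a mitochondrial protein of mitophagy, by 0.26 (adjusted p = 0.00483). Besides *Fas* and *Birc5*, the genes that fell included *Apaf1* (-0.39, adjusted p = 0.000408), *Tnfrsf10b* (-0.29, adjusted p = 0.000304), *Fbxw7* (-0.26, adjusted p = 0.0081) and *Bcl2l13* (-0.18, adjusted p = 0.013). *Tnfrsf10b* encodes a TRAIL receptor, and *Fbxw7* a ubiquitin ligase component that marks MCL1 for degradation. Genes other than *Bok*, *Endog*, *Birc3*, *Birc5* and *Fas* were picked out of the list after their values had been seen.

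**Figure D4:**
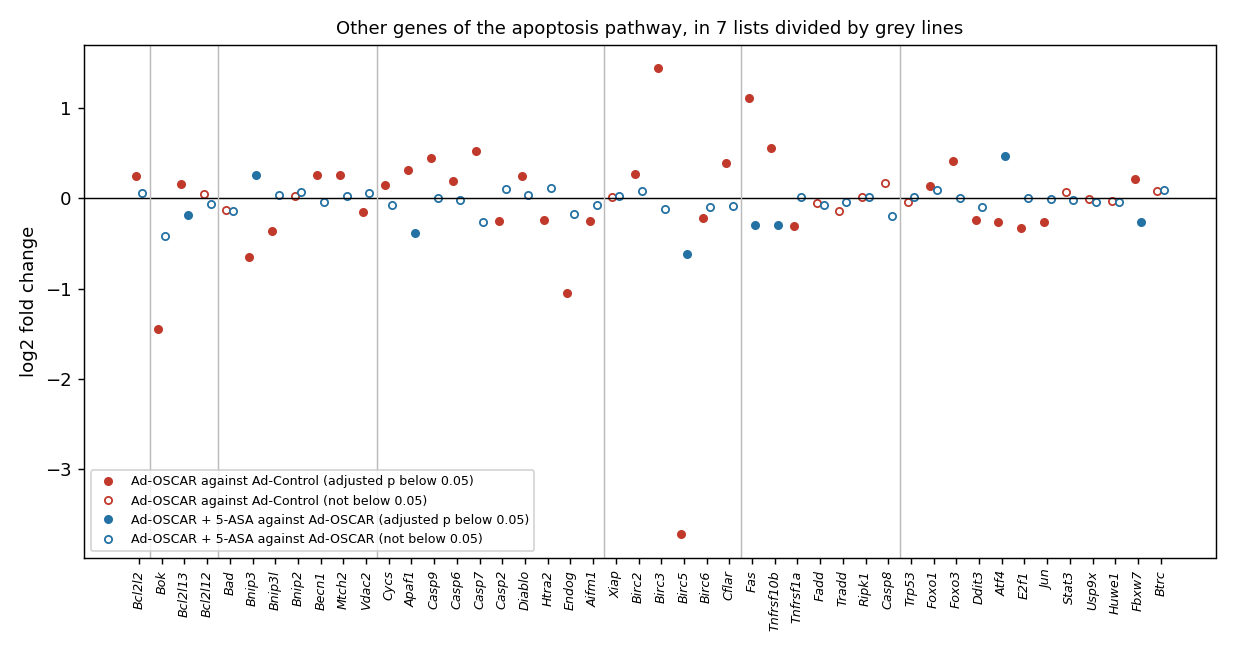
Log2 fold change of other genes of the apoptosis pathway, grouped by role, for Ad-OSCAR against Ad-Control and for Ad-OSCAR + 5-ASA against Ad-OSCAR (filled points: adjusted p below 0.05). The changes with OSCAR run from -3.72 for *Birc5* to 1.44 for *Birc3*, and those with 5-ASA from -0.62 for *Birc5* to 0.47 for *Atf4*.

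Genes whose log2 CPM followed that of a member most closely over the 9 cultures were looked up for the 3 members called in both of the first comparisons. For *Bcl2* these were *Stxbp6*, *Gng2* and *Slc16a1* (Pearson r from 0.996 to 0.9983). For *Bax* they were *Sh2b2*, *Ctnnd2* and *Rgl2* (0.9908 to 0.9931), and for *Bbc3* they were *Fxr2*, *Fbrs* and *Sf3b2* (0.9732 to 0.9892). The 9 points fall into 3 groups, and the correlations share these group means. As a background, 1515 of 13266 genes had an r above 0.9 with *Bcl2*, 1502 with *Bax*, and 201 with *Bbc3*.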

How the data were processed

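RNA was sequenced from 9 cultures, 3 per group as given by the sample annotations. According to the methods and the submitters' processing notes, the authors trimmed the reads, aligned them with STAR 2.7.1a to GRCm38 and deposited estimated counts per gene from RSEM 1.3.1, which are not scaled and need not be whole. The paper's sources name more than one RSEM version. Whether counting used the strand is not given in the sources used here. The deposited files also hold TPM, used here for levels, FPKM, which were not used, and estimated transcript lengths. Reads that fit several genes were shared out by RSEM, so overlapping genes are named, above or here. Those not named above had at most 18 counts in any culture. They are *D630008O14Rik*, *Mir3473f* and *Gm37053* at *Bcl2*, *Gm45808* on the same strand as *Bax*, and *Gm17812* and *Gm44260* at *Bid*.

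Counts were rounded (8.97% to 10.1% of genes were not whole) and tested in R 4.3.3 with edgeR 4.0.16: TMM factors, filterByExpr with the groups, then the quasi-likelihood F test, fitted once to the 9 cultures with no covariate but group (6 residual degrees of freedom). Called means a Benjamini-Hochberg adjusted p below 0.05 over 15362 genes. Replicates differed by more than sampling noise (chi-square per degree of freedom 4.12 to 7.91). Alternatives were RLE factors, library size only, DESeq2 1.42.0, limma 3.58.1 on log2(TPM + 1) or log2(TPM + 0.1), other filters, the 2 groups compared alone, a replicate block, and each culture left out. All 10 members are named in every comparison. Of the wider list, genes called with an absolute log2 fold change over 1 are named, and for each member called in both of the first comparisons the 3 most alike genes with a mean of at least 1 CPM. The members, lists, markers and motifs were chosen with earlier results of these data known. Coordinates follow GENCODE M21 on GRCm38, and promoter sequences are from RefSeq (GRCm38.p6). The scripts were tested on simulated data. 1 gene of the wider list is counted but not reported here by name.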

Additional observations from a re-analysis of the deposited data

How the results depend on the processing

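Of 567 values for single members under other settings, 524 kept their direction and call, 17 gained a call, 15 lost one and 11 changed sign. The cause of the changes was not tested. In the OSCAR comparison the number of members called was 7 or 8 under every setting (7 to 8 with each culture left out), and of the wider list 31 to 34 with each culture left out. For 5-ASA against Ad-OSCAR the number of members called was 4 as reported and 3 to 5 with each culture left out. It was 8 with library size only (1 rose, 7 fell) and 2 in limma with every gene above 0. The wider list gave 16 with library size only and 7 to 10 with each culture left out. Of all genes, 2732 of 15362 were called as reported, 3580 of 15362 with library size only and 1249 of 27603 in that limma fit. Against Ad-Control, 7 to 8 members and 26 to 29 genes of the wider list were called with each culture left out. The fit with a replicate block called 7, 4 and 8 members, with the same member calls as without it. Same-numbered cultures deviated with a mean correlation of -0.021, and 0 of the 9 correlated best with their own number.

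Values that changed sign were close to 0. *Bak1* with OSCAR was 0.095 with library size only, and *Bmf* with 5-ASA was -0.015, -0.016 and -0.015 in the 3 limma fits. *Mcl1* in treated cells against Ad-Control was -0.0020 with RLE factors, -0.0021 in DESeq2, -0.074, -0.075 and -0.074 in limma, and from -0.041 to 0.043 with each culture left out, below 0 without the third Ad-Control (-0.03) or the second 5-ASA culture (-0.041). The anti-apoptotic share depends on the unit: in CPM, not per length, it was 48.2%, 48.7% and 52.1% in Ad-Control, Ad-OSCAR and 5-ASA-treated cells, and without *Mcl1* in TPM 11.8%, 16.8% and 18.4%. Leaving out a culture gave 25.5% to 26.6%, 25.8% to 26.6% and 27.9% to 28.9%. The *Bax* to *Bcl2* ratio was 9.93, 9.23 and 5.86 in CPM. With at least 10 counts in every culture *Pmaip1* was not tested. *Pmaip1* and *Bmf* had the fewest counts of the 10, and depth limits both.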
